A study of Mus musculus with 8 samples.

Results

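The R-spondin axis comprises 9 genes that together set how strongly a cell responds to WNT, namely the secreted R-spondins *Rspo1*, *Rspo2*, *Rspo3* and *Rspo4*, their receptors *Lgr4*, *Lgr5* and *Lgr6*, and the membrane-bound ubiquitin ligases *Znrf3* and *Rnf43*. They were examined in the postnatal day 1 (P1) mouse cortex with and without the chromatin remodelling BAF complex. The 9 genes were chosen from the 48709 genes of the count files by family membership, with the increase of *Rspo2* in the mutant already known, so the values of *Rspo2* are given as a description without a test. RNA of whole cortical tissue was sequenced in 4 control and 4 dcKO_Nex-Cre (hereafter mutant) samples, with 1 library per sample. The dcKO_Nex-Cre mice carried homozygous floxed alleles of both BAF155 (*Smarcc1*) and BAF170 (*Smarcc2*) together with Nex-Cre. The controls were heterozygous for both floxed alleles and lacked Cre, and both groups were on a C57BL6/J background. Nex-Cre acts in postmitotic projection neurons, so that progenitors, interneurons, glia and vascular cells of the mutant tissue keep both genes. In such bulk tissue, a lower value from fewer cells of a type cannot be told apart from one due to less RNA per cell. Likewise, a higher value from more cells cannot be told apart from one due to more RNA per cell.

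Canonical WNT signaling depends on the amount of Frizzled and LRP receptors at the cell surface. ZNRF3 and RNF43 ubiquitinate Frizzled and thereby remove it from the membrane. An R-spondin that bridges an LGR receptor and one of these ligases clears the ligase, and the cell becomes more sensitive to the WNT ligands present. In the developing forebrain, WNT and R-spondin genes are known for their expression at the cortical hem, a signaling centre of the medial cortex.

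The members are related in sequence, and reads from one paralog could in principle be counted for another. In the coding sequences of GENCODE M21 on GRCm38, the R-spondins matched each other in 59.9% to 63.4% of aligned bases, and *Rspo2* and *Rspo3* in 63.4%. The longest run of identical bases between *Rspo2* and *Rspo3*, the 2 most abundant R-spondins, was 14 bases. It is shown here in capitals with its flanks. Only coding sequence was compared, and whether reads of one paralog were counted for another was not tested. With the flanks, the *Rspo2* stretch spans a junction of exons 4 and 5 (chr15:43075938-43078144, minus strand) and the *Rspo3* stretch a junction of exons 3 and 4 (chr10:29500108-29504632, minus strand).
Rspo2: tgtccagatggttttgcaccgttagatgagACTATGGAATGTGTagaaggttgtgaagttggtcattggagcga
Rspo3: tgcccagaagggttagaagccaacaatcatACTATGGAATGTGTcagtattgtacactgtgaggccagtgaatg

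Among the receptors, the longest shared run was 18 bases, between *Lgr5* and *Lgr6*. With its flanks, it spans exons 1 and 2 of both genes (chr10:115520629-115587310 and chr1:135075250-135104957, minus strand). *Znrf3* and *Rnf43* shared a run of 20 bases, the longest among the 10 pairs compared. With its flanks, it lies within exon 8 of each gene (chr11:5281725-5281804, minus strand, and chr11:87731527-87731606, plus strand). Capitals again mark the shared run.
Lgr5: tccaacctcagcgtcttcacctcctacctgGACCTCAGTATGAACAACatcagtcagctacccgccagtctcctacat
Lgr6: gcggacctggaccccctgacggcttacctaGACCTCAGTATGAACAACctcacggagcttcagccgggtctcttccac
Znrf3: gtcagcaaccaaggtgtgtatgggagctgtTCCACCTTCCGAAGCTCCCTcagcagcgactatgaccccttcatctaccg
Rnf43: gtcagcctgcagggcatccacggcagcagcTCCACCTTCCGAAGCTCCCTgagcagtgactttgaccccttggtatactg

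Total counts per library ranged from 17958641 to 35191912. Levels are given as CPM, the counts scaled to a common library size after TMM normalization in edgeR, and errors are SDs over the 4 libraries per group. Differences were tested with edgeR's quasi-likelihood test (two-sided), with Benjamini-Hochberg adjustment of the p values across the 16287 genes that passed the filter on low counts. The labels do not state that replicates are separate animals, so the p values rest on the spread between these samples, which may be technical. As a check of the labels, *Smarcc1* measured 148 ± 11.6 CPM in control and 102 ± 13.7 CPM in dcKO_Nex-Cre libraries, and *Smarcc2* 462 ± 25.8 and 263 ± 26.03 CPM (SD, n = 4), and for both genes each mutant library was below each control. By their file names, the controls and the mutant replicates 1 and 2 came from lane tag 2, whereas the mutant replicates 3 and 4 came from lane tag 8, which held no control. Markers of cortical projection neurons were present in both groups, with summed levels of 819 to 885 CPM in the control and 661 to 912 CPM in the mutant for 8 deep-layer markers. Of these 8, edgeR called 0. At its unadjusted p under 0.05, 3 were lower and 0 higher, beside 7.05% and 6.59% of all tested genes. Among the 3 were *Crym* (122 ± 15.6 and 83.8 ± 10.2 CPM, edgeR adjusted p = 0.0504) and *Fezf2* (63.0 ± 11.2 and 43.0 ± 8.63 CPM; SD, n = 4). *Tbr1* was at 178 ± 5.18 and 176 ± 12.3 CPM. The 8 upper-layer markers summed to 934 to 1046 CPM in the control and 1023 to 1158 CPM in the mutant, with 0 called. The summed level of 8 choroid plexus markers, led by *Ttr*, spanned 24.9 to 1365 CPM in the control and 5.67 to 565 CPM in the dcKO_Nex-Cre libraries, so that libraries of both groups differed widely in these markers.

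Of the 9 members, 8 passed the filter, and each of these 8 reached its level of 0.430 CPM in all 8 libraries. *Rspo2* was higher in the dcKO_Nex-Cre cortex, and none of the other 7 tested members passed an adjusted p of 0.05 (edgeR adjusted p between 0.277 and 0.999). At an unadjusted p under 0.05 there was 1 of these 7, *Lgr5*, beside 13.6% of all tested genes, and DESeq2's Wald test and limma-voom also called 0 of the 7. The log2 fold changes of the 7 genes lay above 0 for 4 and below 0 for 3, with a median of 0.03, beside a median of 0.0043 over all tested genes. Over all genes, 144 were called in either direction (0.884%) and 61 were called higher (0.375%). Leaving out 1 library moved the number of genes called to between 18 (without control replicate 1) and 1278 (without mutant replicate 4), and none of these 8 fits called any of the 7 members other than *Rspo2*. The CPM of the groups did not overlap for *Rspo2*, whose difference chose the genes. Of the other 7 tested members, 1 did not overlap, *Lgr5*, which was higher in the mutant. Its highest control library was at 1.32 CPM and its lowest mutant library at 1.34 CPM. Of all tested genes, 3.99% were higher in the mutant without overlap.

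**Figure D1:**
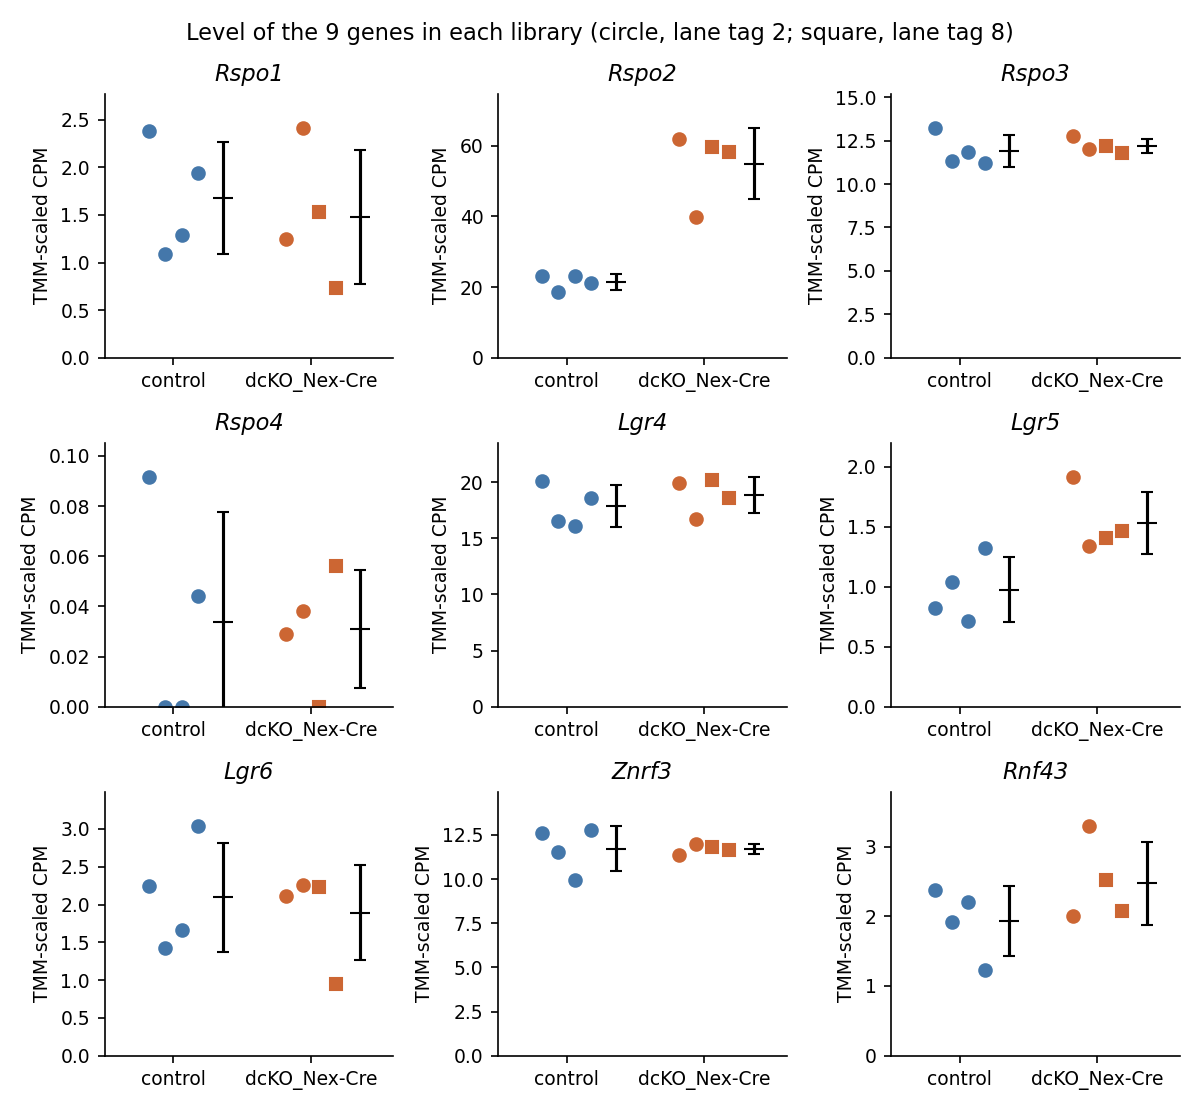
Level of the 9 genes in TMM-scaled CPM (linear axes from 0, a different scale for each gene) in each of the 4 control libraries (blue) and 4 dcKO_Nex-Cre libraries (orange), with circles for lane tag 2, squares for lane tag 8, and the mean ± SD of each group in black. The dcKO_Nex-Cre libraries lie at 39.9 CPM or more for *Rspo2* and the controls at 23.2 CPM or less, whereas for *Rspo3*, *Lgr4* and *Znrf3* the groups lie at the same height.

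*Rspo2* (ENSMUSG00000051920, chromosome 15, 43020794 to 43170826, minus strand), an R-spondin required for limb and lung development, was the member with the largest difference. The 4 control libraries measured 23.2, 18.6, 23.2 and 21.01 CPM, and the 4 dcKO_Nex-Cre libraries 61.9, 39.9, 59.8 and 58.1 CPM. Each mutant library was above each control, and dcKO_Nex-Cre replicate 2 was lower than the 3 other mutants. The means were 21.5 ± 2.23 CPM and 54.9 ± 10.1 CPM (SD, n = 4), so that the mutant stood at 255% of the control. The log2 difference was 1.35 with a standard error of 0.14, or 2.55-fold with a 95% interval of 2.07 to 3.15. Since this difference chose the genes, the interval describes the uncertainty of the fitted fold in these libraries and is not a test. The libraries of both lanes were raised, and within lane tag 2 the log2 difference was 1.25. dcKO_Nex-Cre replicate 2 also had the highest *Smarcc1* (122 CPM) and *Smarcc2* (292 CPM) of the mutant libraries, the most choroid plexus markers among them (565 CPM) and the highest sum of 8 striatum markers (288 CPM, against 85.4 to 147 CPM in the 7 other libraries). The part of these in its lower *Rspo2* was not tested. With this library left out, the log2 difference of *Rspo2* was 1.48.

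*Rspo3* (ENSMUSG00000019880, chromosome 10, 29452416 to 29535867), known for its role in placental and vascular development, was not called. Its control libraries measured 13.2, 11.3, 11.9 and 11.2 CPM, and its dcKO_Nex-Cre libraries 12.8, 11.996, 12.2 and 11.8 CPM. The mutant libraries lay within the range of the controls. The log2 fold change was 0.03 ± 0.10 (SE, edgeR adjusted p = 0.899), and the 95% interval of the fold was 0.882 to 1.19, a range that holds no change of the size of *Rspo2*. The antisense gene *Gm48159* overlaps exons of *Rspo3* and was not analysed here, and counting without strand would mix its reads with those of *Rspo3*.

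*Rspo1* (ENSMUSG00000028871, chromosome 4, 124986430 to 125009099), known from ovary development, was sparse, with 13 to 63 counts per library. It measured 2.38, 1.09, 1.29 and 1.94 CPM in the control and 1.25, 2.41, 1.53 and 0.730 CPM in the mutant. The groups overlapped, and the log2 fold change was -0.17 ± 0.35 (SE, edgeR adjusted p = 0.856). The 95% interval of the fold, 0.523 to 1.52, leaves room for a difference of moderate size in either direction. The 3 highest values were those of control replicates 1 and 4 and dcKO_Nex-Cre replicate 2, the same 3 libraries that held the most choroid plexus markers (757, 1365 and 565 CPM, against 97.6 CPM or less in the 5 others). The part of this tissue in *Rspo1* was not tested. The sign of the *Rspo1* difference was not stable, with 0.10 within lane tag 2.

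*Rspo4* (ENSMUSG00000032852, chromosome 2), whose human counterpart is needed for nail growth, was barely detected. The 4 control libraries held 2, 0, 0 and 1 counts, and the 4 dcKO_Nex-Cre libraries 1, 1, 0 and 1 counts. No library reached 3 counts, which corresponds to 0.0852 to 0.167 CPM depending on depth, and no comparison was possible at this depth. This limit covers counting error only.

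Genes can be compared only per length. Per kilobase of merged exons, *Rspo2* and *Rspo3* were close in the control. *Rspo2* was at 4.21 ± 0.436 CPM per kb and *Rspo3* at 3.86 ± 0.298 CPM per kb (SD, n = 4), and their ranges overlapped. The ratio of *Rspo2* to *Rspo3* within a library was 1.06, 0.990, 1.19 and 1.13 in the control and 2.93, 2.01, 2.96 and 2.98 in the mutant. Each mutant library was above each control, and replicate 2 was the lowest of the mutants. That the pair was close in the control depends on the length, since with the longest transcript of each gene the ratio was 1.67 ± 0.130 in the control and 4.16 ± 0.722 in the mutant (SD, n = 4). As a share of the summed R-spondin level, *Rspo2* made up 47.1% ± 2.25 in the control and 69.0% ± 5.86 in the mutant, *Rspo3* 43.2% ± 2.31 and 25.7% ± 2.82, and *Rspo1* 9.54% ± 2.63 and 5.16% ± 3.13 (SD, n = 4). The ratio and the shares contain the *Rspo2* difference that chose the genes, so they are no separate result. A rise of *Rspo2* alone lowers the shares of the others, and *Rspo3* itself was at 3.86 and 3.95 CPM per kb.

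The summed R-spondin level was 8.94 ± 0.919 CPM per kb in the control and 15.5 ± 1.76 CPM per kb in the mutant (SD, n = 4). This difference lay in *Rspo2*, which the choice of the genes fixed, since the sum of the other 3 R-spondins was 4.73 ± 0.571 and 4.72 ± 0.383 CPM per kb. The receptors summed to 3.44 ± 0.404 and 3.63 ± 0.305 CPM per kb, and the ligases to 1.78 ± 0.148 and 1.86 ± 0.122 CPM per kb (SD, n = 4). The summed ranges of the groups overlapped for the receptors and for the ligases.

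**Figure D2:**
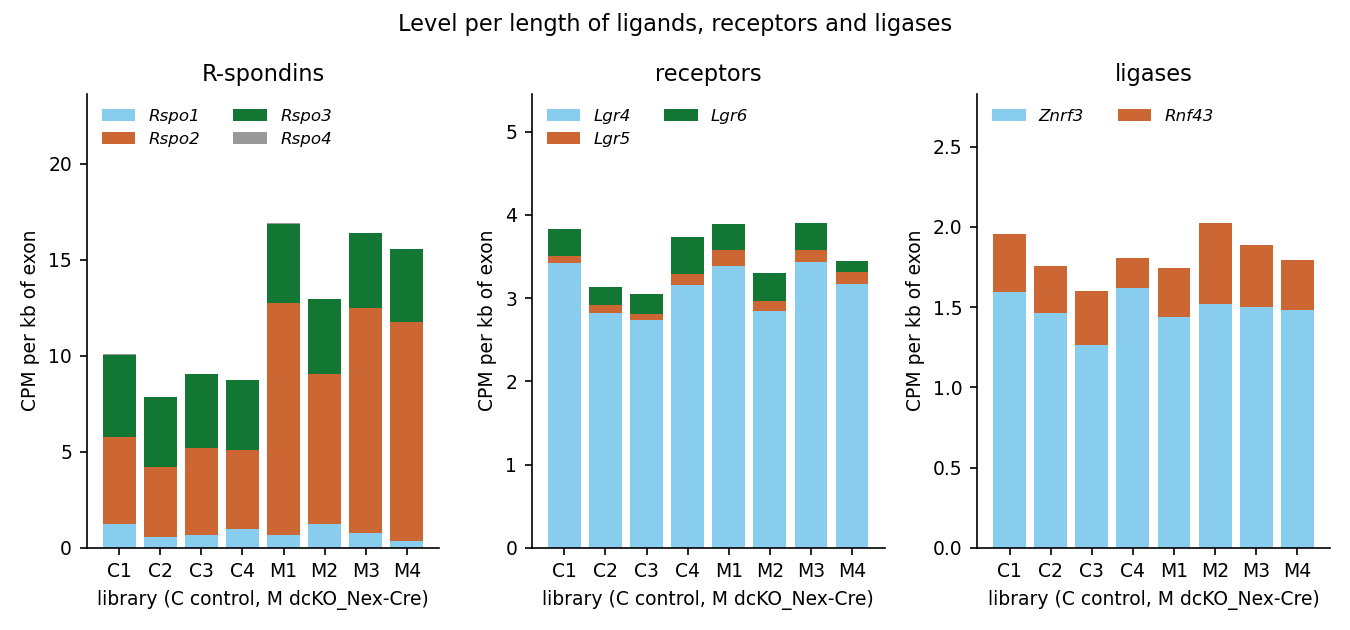
Level per length (CPM per kb of exon, linear axes from 0) in each library, with 1 stacked bar per library for the R-spondins, the receptors and the ligases; C1 to C4 are the control and M1 to M4 the dcKO_Nex-Cre replicates. The R-spondin bars reach 7.86 to 10.1 in the control and 13.0 to 16.9 in the mutant through the *Rspo2* segment, and *Lgr4* and *Znrf3* fill most of the receptor and ligase bars in all 8 libraries.

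*Lgr4* (ENSMUSG00000050199, chromosome 2, 109917647 to 110014257), the broadly expressed R-spondin receptor, carried most of the receptor level. It accounted for 88.5% ± 2.56 of the summed receptor level per length in the control and 88.3% ± 2.50 in the mutant (SD, n = 4). Its libraries measured 20.1, 16.6, 16.1 and 18.6 CPM in the control and 19.9, 16.7, 20.2 and 18.6 CPM in the mutant. The groups covered almost the same range, and the log2 fold change was 0.08 ± 0.10 (SE, edgeR adjusted p = 0.756), with a 95% interval of the fold of 0.902 to 1.24.

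*Lgr5* (ENSMUSG00000020140, chromosome 10, 115450311 to 115587780), a WNT target and a marker of adult epithelial stem cells, was the other member whose groups did not overlap. It measured 0.824, 1.04, 0.709 and 1.32 CPM in the control and 1.91, 1.34, 1.40 and 1.46 CPM in the mutant. The highest control and the lowest mutant library were nearly equal. The means were 0.974 ± 0.269 and 1.53 ± 0.260 CPM (SD, n = 4), and the log2 fold change was 0.66 ± 0.25 (SE), with an unadjusted p of 0.0216 and an adjusted p of 0.277 from edgeR. *Lgr5* therefore did not pass the threshold, and its adjusted p lay between 0.123 and 0.533 with any 1 library left out. The gene was read at 17 to 66 counts per library, and counting alone gives a coefficient of variation of 21.8% in the control, where the observed one was 27.7%. *A930009A15Rik* lies on the opposite strand inside *Lgr5*, shares no exon with it and held 7.25 counts per library on average.

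*Lgr6* (ENSMUSG00000042793, chromosome 1, 134983301 to 135105276), the third receptor and a marker of skin stem cells, was low and variable. It measured 2.24, 1.42, 1.67 and 3.04 CPM in the control and 2.12, 2.26, 2.23 and 0.954 CPM in the mutant. The other 3 mutant libraries were close together, and replicate 4 lay below every other library. The log2 fold change was -0.13 ± 0.30 (SE, edgeR adjusted p = 0.871), and it was 0.07 without dcKO_Nex-Cre replicate 4.

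*Znrf3* (ENSMUSG00000041961, chromosome 11, 5276324 to 5444847), a ligase that is itself induced by WNT signaling and feeds back on it, was the closest to equal between the groups. It measured 12.6, 11.5, 9.97 and 12.8 CPM in the control and 11.4, 11.996, 11.8 and 11.7 CPM in the mutant. All mutant libraries lay inside the control range. Its log2 fold change was -0.00036 ± 0.11 (SE, edgeR adjusted p = 0.999), with a 95% interval of the fold of 0.849 to 1.18.

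*Rnf43* (ENSMUSG00000034177, chromosome 11, 87662722 to 87735539), the paralogous ligase with the same feedback role, was present at a lower level, with 16.7% ± 4.55 of the summed ligase level per length in the control and 20.1% ± 3.44 in the mutant (SD, n = 4). It measured 2.38, 1.92, 2.21 and 1.23 CPM in the control and 2.0, 3.30, 2.52 and 2.08 CPM in the mutant. The groups overlapped, with control replicate 4 the lowest and dcKO_Nex-Cre replicate 2 the highest library. The log2 fold change was 0.35 ± 0.25 (SE, edgeR adjusted p = 0.539), and the 95% interval of the fold ran from 0.880 to 1.86.

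**Figure D3:**
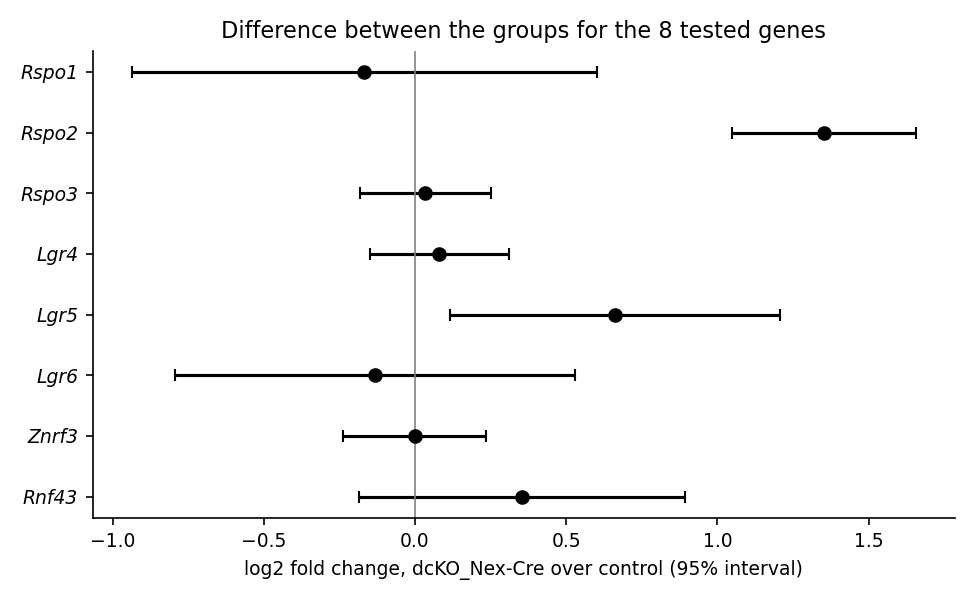
Log2 fold change of the dcKO_Nex-Cre over the control cortex (x axis) for the 8 tested members, with 95% intervals from edgeR's quasi-likelihood fit. The intervals of *Rspo3*, *Lgr4* and *Znrf3* are narrow around 0, those of *Rspo1*, *Lgr6* and *Rnf43* are wide and include 0, that of *Lgr5* runs from 0.12 to 1.21 before adjustment over all genes, and that of *Rspo2*, shown as a description, runs from 1.05 to 1.66.

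In the control cortex the order of the levels per length was *Rspo2*, *Rspo3*, *Lgr4*, *Znrf3*, *Rspo1*, *Lgr6*, *Rnf43*, *Lgr5* and *Rspo4*. The ranges of *Rspo2* and *Rspo3* overlapped, as did those of *Lgr6* (0.306 ± 0.105 CPM per kb) and *Rnf43* (0.295 ± 0.0772 CPM per kb), so these neighbours had no settled order. *Lgr4* at 3.03 ± 0.318 CPM per kb stood apart from *Znrf3* at 1.49 ± 0.163 CPM per kb, and *Znrf3* from *Rspo1* at 0.865 ± 0.305 CPM per kb (SD, n = 4). In the dcKO_Nex-Cre cortex the first 5 genes kept this order. There *Rspo2* at 10.7 ± 1.98 CPM per kb was clear of *Rspo3* at 3.95 ± 0.139 CPM per kb, while *Rspo1*, *Rnf43* and *Lgr6* each overlapped in range with the next gene of the series *Rspo1*, *Rnf43*, *Lgr6* and *Lgr5*. The order turned with the length used. With the longest transcript as the length, the control ranges of *Rspo2* (5.56 to 6.96 CPM per kb) and *Rspo3* (3.64 to 4.29 CPM per kb) did not overlap, those of *Rspo3* and *Lgr4* did, *Rnf43* (mean 0.449 CPM per kb) came before *Lgr6* (0.314 CPM per kb), and in the mutant *Lgr5* (0.319 CPM per kb) came before *Lgr6* (0.283 CPM per kb).

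The surroundings of the axis were read from 9 lists of 112 genes, of which 94 were tested. Besides WNT components, the lists hold other leucine-rich repeat receptors, among them *Rxfp1* and *Tshr*, and other transmembrane RING ligases. These are relatives of the members by class, and the counts given here take all lists together. Of the 94 genes, edgeR called none higher and 1 lower, *Rxfp1*. At an unadjusted p under 0.05, 13 were higher (13.8%) and 2 lower (2.13%), beside 6.59% and 7.05% of all tested genes. The median log2 fold change of the 94 genes was 0.08, and 65 of them (69.1%) lay above 0, beside 50.9% of all tested genes. DESeq2's Wald test called 3 of them higher, namely *Dkk3*, *Sdc2* and *Tshr*, and limma-voom called none higher. Without dcKO_Nex-Cre replicate 4, edgeR called 9 genes of the lists higher, beside 659 of all 16539 tested genes. The 9 were *Wnt7b*, *Fzd1*, *Lrp5*, *Dkk3*, *Draxin*, *Tpbg*, *Tnks*, *Sdc2* and *Tshr*. Mutant replicate 4 had the lowest total counts. Its mitochondrial share was 6.15%, against 2.33% to 3.47% in the other mutants and up to 6.87% in the controls. The part of these traits in the calls was not tested. Within lane tag 2, edgeR called 2 genes of the lists higher, *Fzd1* and *Lrp5*. The calls given below are from all 8 libraries.

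Among the 19 WNT ligands, which the axis amplifies, 11 were tested and 0 were called. *Wnt7b*, a ligand of cortical neurons, was at 82.0 ± 8.74 CPM in the control and 107 ± 16.8 CPM in the mutant (SD, n = 4), with a log2 fold change of 0.38 (edgeR adjusted p = 0.176). *Wnt4* had a log2 fold change of 0.24 and *Wnt5a* of 0.14. All 16 Frizzled, LRP and other WNT receptors were tested, with 0 called, 13 above 0 and a median log2 fold change of 0.16. Among the receptors with at least 100 counts on average, those farthest from 0 were *Fzd1* (0.37, edgeR adjusted p = 0.256), *Lrp5* (0.35, adjusted p = 0.224) and *Fzd4* (0.32, adjusted p = 0.411). These receptors are the substrates or partners of the substrates of ZNRF3 and RNF43, and the counts speak to their RNA and not to their amount at the membrane.

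Of 17 secreted or membrane-bound WNT antagonists, 13 were tested and 0 called, with log2 fold changes of 0.40 for *Sfrp2*, -0.40 for *Sostdc1* and 0.36 for *Dkk3*. *Dkk3* was at 111 ± 10.8 CPM in the control and 142 ± 16.1 CPM in the mutant (SD, n = 4), without overlap between the groups (edgeR adjusted p = 0.136). The 20 cytoplasmic and nuclear components, all tested, had 0 calls and a median of 0.09, with *Tnks* (0.27), *Gsk3a* (0.19) and *Pygo1* (0.17) the farthest from 0 among those with at least 100 counts.

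WNT target and feedback genes did not lean to either side. Of the 13 tested, 6 lay above 0 and 7 below, none was called by edgeR or reached an unadjusted p under 0.05, and the median log2 fold change was -0.03. *Apcdd1* had a log2 fold change of 0.28 (edgeR adjusted p = 0.462), *Nkd2* of -0.21 (adjusted p = 0.420) and *Bambi* of 0.11 (adjusted p = 0.791). *Znrf3*, *Rnf43* and *Lgr5*, which are WNT targets as well as members of the axis, are described above.

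Heparan sulfate proteoglycans, which can present R-spondins at the cell surface, were all 10 tested with 0 called. *Sdc2* (log2 fold change 0.42, edgeR adjusted p = 0.145) and *Sdc1* (-0.36, adjusted p = 0.187) lay on opposite sides of 0, and neither overlapped between the groups. *Gpc3* had a log2 fold change of -0.72 (adjusted p = 0.522) with a wide spread, from 2.71 to 10.1 CPM in the control and from 1.85 to 7.09 CPM in the mutant. *Gpc3* and the antagonist *Sostdc1* were highest in control replicates 1 and 4 and mutant replicate 2, the libraries with the most choroid plexus markers, and the part of this tissue in both genes was not tested. Among other partners of R-spondins or LGR4, 4 were tested and 0 called, with log2 fold changes of 0.10 for the BMP receptor *Bmpr1a*, -0.05 for *Sdc4* and 0.03 for the alternative LGR4 ligand *Ndp*.

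The leucine-rich repeat receptors related to LGR4 to LGR6 gave the only call of the pathway lists. *Rxfp1*, the relaxin receptor, measured 7.24, 7.88, 5.63 and 7.58 CPM in the control and 1.86, 1.65, 1.94 and 3.42 CPM in the mutant. It fell from 7.08 ± 1.0 to 2.22 ± 0.814 CPM (SD over 4 libraries each), with a log2 fold change of -1.70 (SE 0.23, edgeR adjusted p = 0.00998). Its adjusted p was 0.0507 without control replicate 1 and 0.0534 without dcKO_Nex-Cre replicate 3, with log2 fold changes of -1.68 and -1.65. *Tshr*, the thyrotropin receptor, measured 4.12, 3.89, 4.92 and 3.70 CPM in the control and 12.1, 4.98, 10.9 and 6.45 CPM in the mutant, with a log2 fold change of 1.05 (edgeR adjusted p = 0.104). The groups of *Tshr* did not overlap, and dcKO_Nex-Cre replicate 2 was close to the controls. The other transmembrane RING ligases of the ZNRF3 and RNF43 class all had log2 fold changes above 0 in the 6 tested genes, with 0 called. The values were 0.18 for *Rnf167* (edgeR adjusted p = 0.252), 0.07 for *Rnf150* and 0.06 for *Rnf13*. The summed level of this list was 227.4 to 244.9 CPM in the control and 245.1 to 259.6 CPM in the mutant, without overlap.

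**Figure D4:**
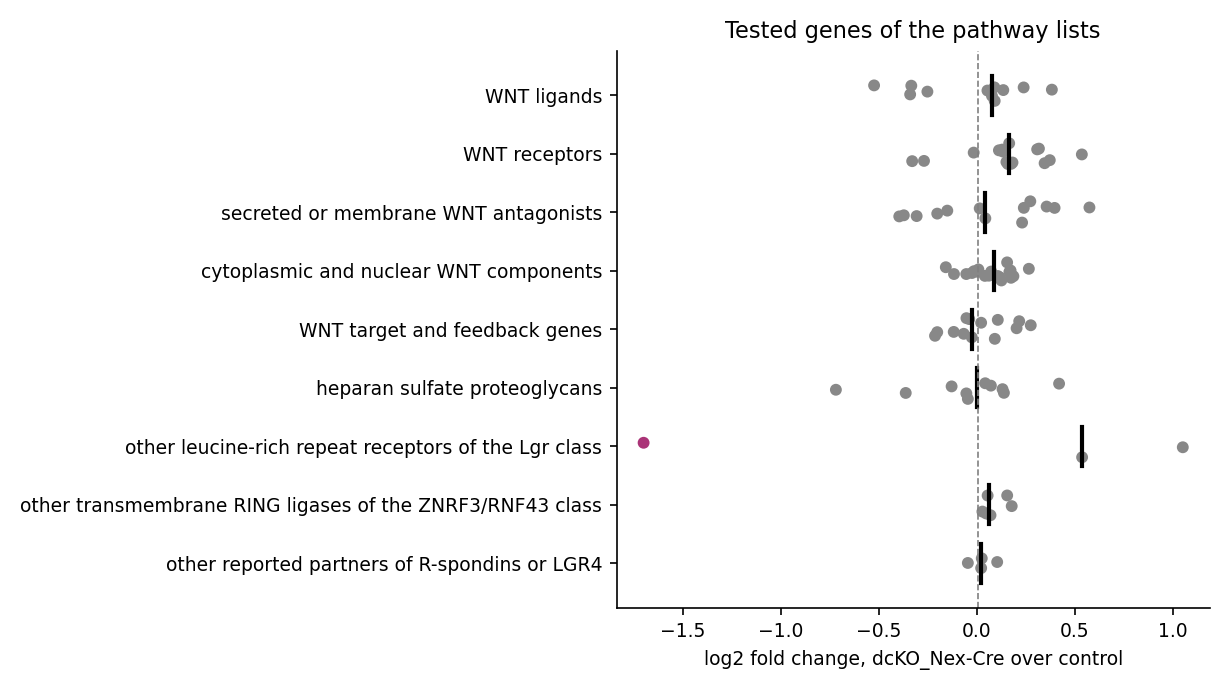
Log2 fold change of the dcKO_Nex-Cre over the control cortex (x axis) for each of the tested genes of the 9 pathway lists, with 1 row per list (points spread vertically for legibility), black bars at the list medians and a dashed line at the median of all tested genes. The purple point is *Rxfp1* at -1.70, the single gene with an adjusted p under 0.05, and the grey points of most lists lie on both sides of 0.

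The genes whose profile over the 8 libraries was closest to that of *Rspo2* were found by the root mean square distance of log2 CPM relative to the control mean, among 12042 genes with at least 100 counts per library on average, where the median distance was 0.964. They were *Cbln2* (distance 0.235), *Ngfr* (0.264), *Tekt1* (0.328), *Folh1* (0.337) and *Tshr* (0.374). *Cbln2*, a secreted synapse organizer, measured 25.4, 22.003, 19.7 and 30.8 CPM in the control and 61.8, 37.7, 64.4 and 72.5 CPM in the mutant. As for *Rspo2*, replicate 2 was its lowest mutant library. *Ngfr*, the low-affinity neurotrophin receptor, was at 7.32 ± 1.03 CPM in the control and 20.0 ± 3.29 CPM in the mutant (SD, n = 4), and its replicate 2 was not low. *Tekt1*, a protein of ciliary microtubules, was at 6.10 ± 0.432 and 12.5 ± 0.860 CPM, and *Folh1*, a glutamate carboxypeptidase, at 3.80 ± 0.528 and 9.06 ± 2.63 CPM (SD, n = 4). The distances rest on 8 libraries, and the difference between the groups enters them.

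**Figure D5:**
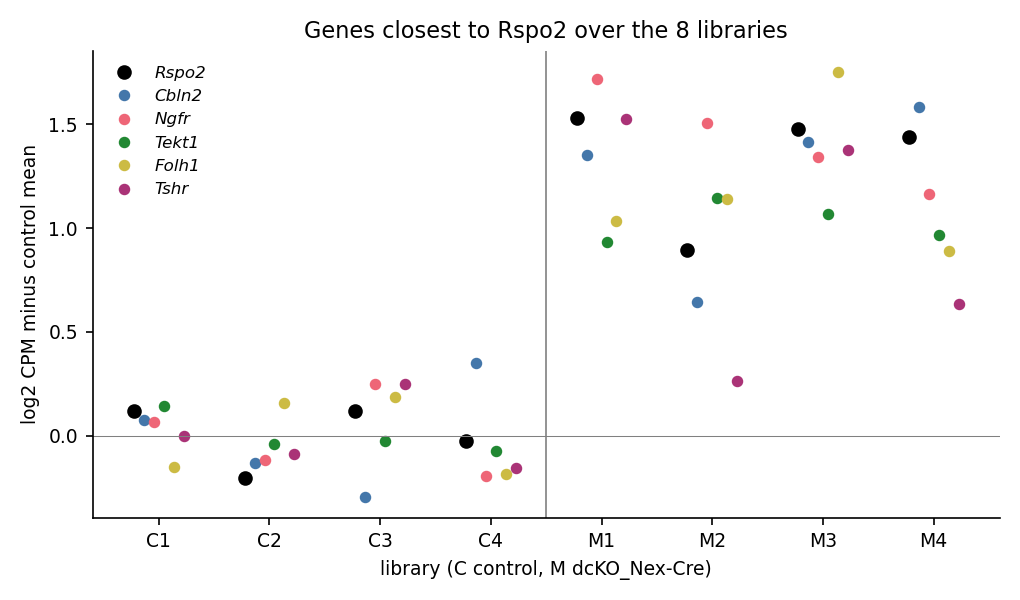
Log2 CPM relative to the control mean (y axis) of *Rspo2* (black) and of the 5 genes with the most similar profile in each of the 8 libraries (x axis; C control, M dcKO_Nex-Cre, points of a library offset sideways). All 6 genes lie near 0 in the controls and above 0 in each mutant library, and *Rspo2*, *Cbln2* and *Tshr* are lowest among the mutants in M2, at 0.90, 0.64 and 0.26.

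The genes next to *Rspo2* on chromosome 15 were examined for a difference shared along the chromosome. With a start within 1 Mb of that of *Rspo2*, 8 genes are annotated, 4 were tested and edgeR called 0 of them. The nearest tested gene, *Eif3e*, which encodes a translation initiation factor subunit and starts 111893 bases from the start of *Rspo2*, was at 210 ± 29.0 CPM in the control and 210 ± 34.4 CPM in the mutant (SD, n = 4; log2 fold change -0.0065, edgeR adjusted p = 0.986). *Emc2* had a log2 fold change of -0.16 (adjusted p = 0.360), *Angpt1* of 0.14 (adjusted p = 0.674) and *Tmem74* of 0.26 (adjusted p = 0.298). At an unadjusted p under 0.05, *Emc2* lay below and *Tmem74* above the control. No annotated gene overlaps *Rspo2*, *Lgr4*, *Lgr6* or *Znrf3*. Besides the overlapping genes named above, *Gm12930* overlaps *Rspo1*, *Gm20276* overlaps *Rspo3* and *Rspo4os* overlaps *Rspo4*. *Gm25968* and *1110028F11Rik* overlap *Rnf43*. None of these shares an exon with the member.

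Markers of other cell types were set beside these values. In the 15 marker lists, 5 of 109 tested genes were called (4.59%, beside 0.884% of all tested genes), namely *Cplx3*, *Cspg4*, *C1qb* and *Ppp1r1b* higher and *Prkcd* lower. All 6 markers of oligodendrocyte precursors lay above 0, with a median log2 fold change of 0.32, 1 called (*Cspg4*) and 4 at an unadjusted p under 0.05, and their sums ranged from 176 to 256.3 CPM in the control and from 255.9 to 311 CPM in the mutant. *Cplx3*, a subplate marker, rose from 1.59 ± 0.593 to 5.25 ± 0.923 CPM (SD, n = 4; edgeR adjusted p = 0.0162), while the summed level of the 6 subplate markers found overlapped between the groups (52.5 to 63.5 CPM and 54.3 to 62.3 CPM). The summed Cajal-Retzius markers, of cells that derive in part from the cortical hem, ranged from 508 to 1057 CPM in the control and from 608 to 837 CPM in the mutant, with 0 of 8 called by edgeR and 0 at an unadjusted p under 0.05. The summed meningeal fibroblast markers ranged from 19.6 to 41.5 CPM and from 12.7 to 86.0 CPM, with 0 of 8 called and 1 at an unadjusted p under 0.05. The thalamus was the one marker list whose summed level did not overlap between the groups. It was at 127 to 144 CPM in the control and 99.1 to 120 CPM in the mutant, with *Prkcd* called out of 6 tested markers. The part of any of these tissues in the level of *Rspo2* was not tested.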

How the data were processed

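The authors deposited a file of unnormalized read counts by Ensembl identifier for each of the 8 libraries. The labels give the mm10 genome build and a TruSeq RNA v2 kit. The aligner, the counting program, the annotation and the use of strand are not given in the sources used here. Positions and lengths were taken from GENCODE M21 (GRCm38), in which 48349 of 48709 genes were matched.

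The groups were compared in edgeR 4.0.16 under R 4.3.3 (filterByExpr, TMM, robust quasi-likelihood F test, no covariates). Levels per length are CPM per kb of merged exons. The methods were tested on simulated counts. The alternatives were DESeq2 1.42.0 (size factors, Wald test), limma-voom (limma 3.58.1), no filter, at least 10 counts in every library, lane tag 2 only, lane tag as a term, the replicate number as a block, the longest transcript as length, and leaving out each library. No libraries of a group were copies (chi-square per degree of freedom at least 3.52). Lane tags were read from file names. Figures were drawn with matplotlib 3.10.9.

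The members, the pathway lists and the marker lists were chosen with earlier results of these data known. From each pathway list, the genes with an adjusted p under 0.05 and the 3 largest absolute log2 fold changes among genes with at least 100 counts on average were named, along with the 5 genes closest to *Rspo2*, its neighbours and genes that overlap a member. Called and leading marker genes were named after their values were seen.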

Additional observations from a re-analysis of the deposited data

Results flagged for a closer look

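For the tested members, the sums over ligands, receptors and ligases, the total counts and the mitochondrial share, the 4 libraries of a group were searched for a value far from the other 3, by Dixon's test at the 95% level. In 1 of the 26 groups examined, a library stood apart, and chance alone gives about 1 such group among that many. It was *Lgr6* in the dcKO_Nex-Cre cortex, at 0.954 CPM in replicate 4, where the other mutant libraries lay between 2.12 and 2.26 CPM.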

How the results depend on the processing

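The log2 difference of *Rspo2*, which chose the genes, was 1.29 to 1.48 when a library was left out and 1.24 to 1.36 otherwise. *Rspo3*, *Lgr4*, *Lgr5* and *Rnf43* kept their direction in all 16 alternatives, and none of the members other than *Rspo2* was called in any alternative. The sign changed, without a call, for *Rspo1* (0.10 within lane tag 2 and 0.10 with the lane tag as a term; -0.50 to 0.052 over the left-out libraries), *Lgr6* (0.058 and 0.056; -0.26 to 0.10) and *Znrf3* (0.0010 with DESeq2 size factors, 0.0070 with the Wald test, 0.0059 with limma-voom, 0.0091 without a filter; -0.071 to 0.044).

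Over all genes, 61 were called higher and 83 lower. Leaving out a library gave 9 to 659 higher and 9 to 619 lower. In both directions together, 18, 87, 28 and 21 genes were called without control replicates 1, 2, 3 and 4, and 77, 48, 25 and 1278 without dcKO_Nex-Cre replicates 1, 2, 3 and 4, instead of 144. DESeq2's Wald test called 202 higher and 258 lower, no filter 109 and 150, lane tag 2 alone 140 and 108, and the lane tag as a term 23 and 29. In the pathway lists, the Wald test called 3 higher and lane tag 2 alone 2, and left-out libraries gave 0 to 9 higher and 0 to 1 lower. With the longest transcript as the length, the share of *Rspo2* was 57.4% in the control and 77.1% in the mutant, that of *Rspo3* 34.5% and 18.9%, and that of *Lgr5* 5.02% and 7.35%. Beyond the number of samples tested, the cause of these changes was not tested.

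With the replicate number as a block, 21 genes were called higher and 33 lower, the log2 difference of *Rspo2* was 1.34 and that of *Znrf3* 0.0053. The deviations of same-numbered libraries from their group means correlated by 0.13, 0.02, 0.13 and -0.14. Each library correlated better with another number than with its own. These correlations gave no sign of pairs by number, but they cannot settle whether the samples were paired. Depth limits *Rspo4* and, with fewer than 90 counts per library, *Rspo1*, *Lgr5*, *Lgr6* and *Rnf43*.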
